A study of Mus musculus with 51 samples.

Results

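Strong HNF4a peaks in control mouse liver are the 6080 of 36755 intervals (16.5%) in the control HNF4a peak list whose score was 1000 or more. They were chosen by the score that the authors' peak caller gave each peak, so their high scores are a description and not a result. The other 30675 peaks of the same list served for comparison, together with the 6080 peaks that come next by score, which span 503.39 to 999.67.

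HNF4a is a nuclear receptor of hepatocytes that binds DNA as a homodimer at direct repeats of a short half-site, in promoters and in distant enhancers. It is required for much of the gene expression of the adult liver, including genes of lipid transport, bile acid synthesis and clotting, and it often binds near FoxA factors, which open chromatin in liver. Chromatin immunoprecipitation with sequencing (ChIP-seq) pulls down fragments of cross-linked chromatin with an antibody, and a peak is an interval where such fragments pile up. A peak's score may therefore depend on the number of fragments, and through it on occupancy, antibody access and the copy number of the locus. The depth of the libraries may also affect scores, but it is shared by all peaks of the list. How the score was computed is not stated in the sources used here, and its link to each of these was not tested.

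The list is given for 4 control ChIP samples, and the series lists 4 wildtype input samples; it holds 1 score per peak with no column per sample. The ChIP samples are labelled wildtype, with HNF4a as the antibody, and their chromatin came from frozen liver, although their source field names hepatocytes. The series removes FoxA1 and FoxA2 from adult hepatocytes that already lack FoxA3, using an adeno-associated virus whose Cre is driven by the hepatocyte promoter of thyroid-binding globulin. The design text gives its controls as animals with the same floxed alleles and FoxA3 deletion that received a GFP virus, and whether the wildtype ChIP samples are such animals is not said. Without a value per sample there is no spread between replicates, so no test was made, and the 95% intervals below cover counting error only. Peaks of 1 list share libraries and chromosomes and are not replicates. The depth of the libraries is unknown. The list carries no gene level against which the labelled tissue could be checked.

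Coordinates are those of the list and the build is mm9, per the submitters' processing notes. The last peak on chromosome 1 ends at 197057290, and on 9 of 21 chromosomes the last peak lies beyond the last gene of GRCm38.p6, the build of the only gene table at hand. Peaks were therefore not joined to genes, and no sequence is printed.

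The list runs from a score of 50 to 3233.06, with a median of 266.95 and quartiles of 112.17 and 690.7. Within the strong peaks the median was 1538.39 and the quartiles were 1214.62 and 2124.93. Most strong peaks lay near the lower end, with 4316 (71.0%) between 1000 and 2000. The threshold cuts a smooth slope and no gap in the scores separates the strong peaks from the rest. The 3 peaks just inside it were chr3:14828689-14829482 at 1000.27, chr1:193486759-193488070 at 1000.32 and chr18:11144245-11145478 at 1000.54. The 3 just outside it were chr18:84854148-84855494 at 999.67, chr9:31014998-31016002 at 999.61 and chr6:51629984-51630815 at 999.57. These 6 peaks were 794 to 1347 bp wide, and both sides of the threshold held narrow and wide ones.

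**Figure D1:**
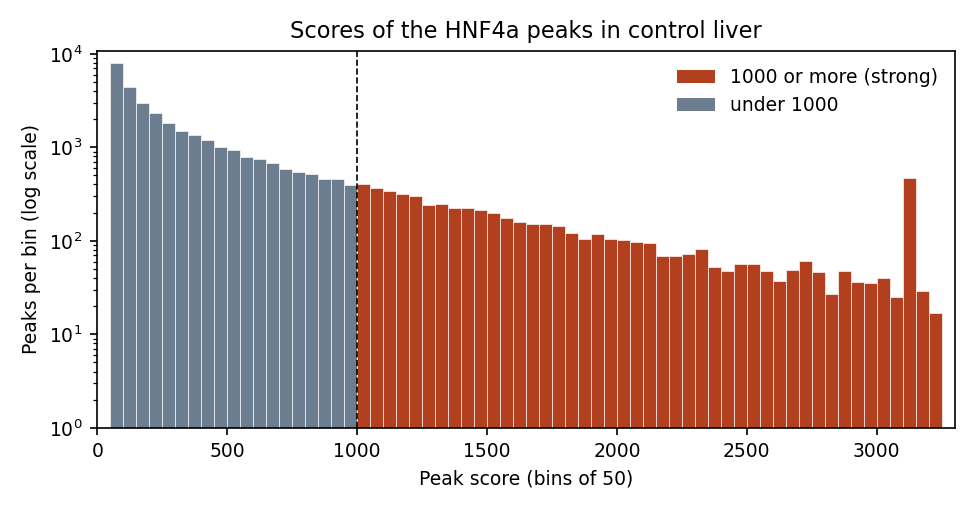
Number of HNF4a peaks in control liver (vertical axis, log scale) in bins of 50 score units (horizontal axis), with strong peaks in red, other peaks in grey and the threshold of 1000 as a dashed line. Counts decline with no break at the threshold and rise again in the bin that holds the 434 peaks scored exactly 3100.

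The top of the scale is crowded. Exactly 3100 was the score of 434 peaks, or 7.14% of the strong peaks, while the next most common score in the list was shared by 18 peaks. A further 80 peaks lay above 3100. The highest score, 3233.06, equals, to 2 decimals, minus 10 times the log10 of the smallest positive number that double-precision arithmetic can hold. The sources used here do not state the score's scale, and whether the shared value stands for p-values too small to store was not tested. The peaks at 3100 were wider (median 1968 bp, quartiles 1536 and 2593.75) than the 80 peaks above it (median 1592 bp, quartiles 1267.25 and 2184). They were also wider than the 65 peaks from 3000 to under 3100 (median 1610 bp). The order of scores at and above 3100 thus does not match the order of widths. Scores of these 514 peaks are therefore given as listed.

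The 10 peaks with the highest listed scores are named by the rule for named peaks, and their order carries no weight. Of these, 2 shared 3233.06, namely chr11:61191238-61192827 (1590 bp) and chr12:84919741-84920739 (999 bp). The first was 8.2 kb from its nearest neighbour and 108 kb from the nearest strong peak. The second had another strong peak 252 bp away. The other 8 scored 3230.05 to 3216.43 and were chr3:69086149-69087213, chr18:85074600-85076357, chr6:116584750-116586400, chr15:9043066-9045329, chr2:84595956-84597034, chr3:51004648-51007206, chr16:22919771-22921044 and chr4:132038577-132039879. These 10 peaks lay on 9 chromosomes and were 999 to 2559 bp wide. Of the 10, 5 had another strong peak within 3 kb (on chromosomes 4, 12, 15, 16 and 18), while chr3:69086149-69087213 and chr6:116584750-116586400 had none within 250 kb.

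Strong peaks were wider than the others. Their median width was 1255 bp (95% interval of the median 1237 to 1273, quartiles 966 and 1709.25, n = 6080). The other peaks had a median of 771 bp (768 to 774, quartiles 672 and 1022, n = 30675), so the ratio of the medians was 1.63. Width and score come from the same fragments, and width is thus not independent of the choice of members. The median rose with every step in score up to 3100, from 651 bp at 50 to under 100, through 1002 bp at 750 to under 1000 and 1092 bp at 1000 to under 1500, to 1525 bp at 2500 to under 3000. The rise was gradual and showed no step at the threshold. On each of the 19 autosomes the strong median (1185.5 to 1379 bp) was above the median of the other peaks (739.5 to 812 bp), and these ranges did not overlap. Strong peaks held 24.0% of the summed width of all peaks, 8.84 of 36.8 Mb.

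The 2 sets of widths nevertheless overlapped. Of the other peaks, 4223 (13.8%) were wider than the strong median, while 131 strong peaks (2.15%) were narrower than the median of the others. Peaks of 3 kb or more numbered 216 among the strong and 116 among the others, so 65.1% of these wide intervals were strong. Among the 100 widest peaks, 58 were strong. The widest strong peak, chr11:101228183-101241310, covered 13128 bp with a score of only 1464.63. The second, chr5:90889346-90902304, covered 12959 bp with a score of 1112.46, and the third, chr12:105576012-105587139, covered 11128 bp at the shared score of 3100. The widest pair thus scored under the strong median, and the widest interval of the whole list, chr4:49546973-49562864 (15892 bp), scored 539.55 and is not a member. The narrowest strong peaks were chr1:34179565-34180178 (614 bp, score 1337.66), chr14:78805255-78805916 (662 bp, 1110.95) and chrX:137066687-137067352 (666 bp, 1309.16). Across all 36755 peaks, which share libraries, the Spearman correlation of score and width was 0.61. It was 0.37 across the strong peaks and 0.28 across those under 3100; these sets are cut on the score, which by itself lowers a correlation, so the values are not compared.

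**Figure D2:**
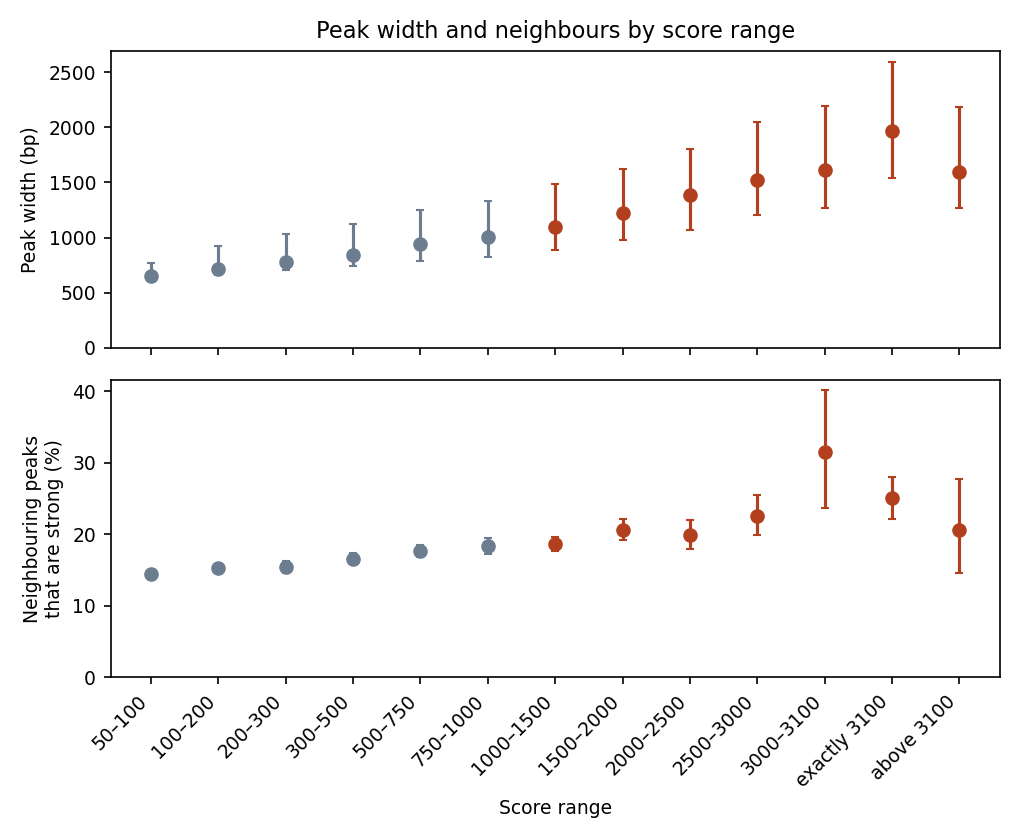
Upper panel, peak width in bp by score range, as the median with quartiles as bars. Lower panel, percent of the peaks next to those of each range that are strong, with exact 95% binomial intervals. These intervals are too narrow even as counting error, since a peak can be counted from both sides. Strong ranges are red. Neither measure steps at the threshold, and the peaks at exactly 3100 have the highest median width, 1968 bp.

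Strong peaks lay closer to other peaks. The gap from the edge of a strong peak to the nearest peak of any score had a median of 2003.5 bp (1915 to 2117), against 3683 bp (3589 to 3784) for the other peaks and 2732.5 bp (2551 to 2903) for the next 6080 by score. A neighbour stood within 1 kb of 34.8% of strong peaks and 26.4% of the others, and within 10 kb of 82.2% and 68.7%. Within 100 bp the shares were 5.87% and 4.87%, and whether such close intervals are separate binding sites was not tested. Neighbours and clusters below count intervals as listed. On each of the 19 autosomes the strong median (1539 to 2534 bp) was below that of the other peaks (3077 to 4848 bp). A wide interval has edges nearer to its neighbours, and the contrast was smaller between midpoints, at 3300.25 bp for strong peaks and 4678 bp for the others. Strong peaks also had more weak peaks around them, counted between midpoints. A median of 8 peaks under 1000 (quartiles 5 and 11) lay within 100 kb on either side of a strong peak, 6 (quartiles 3 and 10) around one of the others, itself left out, and 7 (quartiles 4 and 11) around one of the next 6080.

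Few strong peaks were far from every other peak. In all, 89 (1.46%) had their nearest peak over 100 kb away, against 1344 (4.38%) of the others and 161 (2.65%) of the next 6080. The most isolated was chr6:104618487-104619307 (score 1060.92), 2.12 Mb from any other peak and 3423 kb from the next strong one. It was followed by chr1:111265743-111266535 (score 1268.59) at 1.43 Mb and chr8:115663774-115665632 (score 1389.44) at 944 kb. All 3 scored under the strong median.

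**Figure D3:**
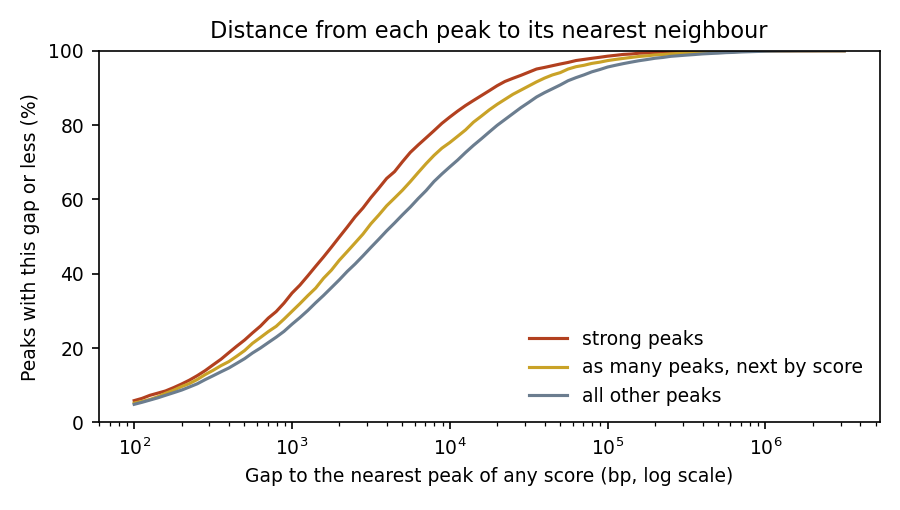
Percent of peaks (vertical axis) whose nearest neighbour of any score lies within the gap on the horizontal axis (bp, log scale), for strong peaks, the next 6080 peaks by score and all other peaks. The curve of the strong peaks lies to the left, with medians of 2003.5, 2732.5 and 3683 bp.

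The peaks next to a strong peak were more often strong themselves. Counting the next peak on each side at any distance, 2452 of 12157 neighbours of strong peaks were strong (20.2%, 95% interval 19.5 to 20.9). For the other peaks it was 9705 of 61311 (15.8%, 15.5 to 16.1). A pair of adjacent strong peaks is counted from both sides, and so is a pair of adjacent other peaks. The intervals of this measure are therefore too narrow in both classes even as counting error, and no overlap is read from them by distance. This measure uses the order of peaks along the chromosome and not their width or distance. With chromosomes 1 to 19 alone, the shares were 20.3% and 16.3%. The share was higher for strong peaks on 18 of 19 autosomes; on chromosome 19 it was lower, at 16.4% against 18.5%. By score range it rose from 14.5% next to the weakest peaks (50 to under 100) to 18.4% at 750 to under 1000 and 18.6% at 1000 to under 1500. In the higher ranges up to 3100 it lay between 19.9% and 31.5%, with no steady order. The top value is that of the 65 peaks from 3000 to under 3100 (41 of 130 neighbours, 23.7 to 40.3). Over the 514 peaks at or above 3100 no trend is read. The share was lower at long than at short distances in both classes, at every step for the other peaks but not for the strong ones. Neighbours up to 1 kb away were strong in 23.7% of cases for strong peaks and 20.0% for the others. From 5 kb to the linking distance used below, 0.0125 Mb, it was 22.3% and 16.9%, from there to 25 kb 17.6% and 15.6%, from 25 to 50 kb 13.5% and 13.0%, and from 50 to 100 kb 14.9% and 11.3%. Over 100 kb away the direction was the opposite, at 8.98% for strong peaks (80 of 891, 7.18 to 11.05). For other peaks it was 9.50% (811 of 8537, 8.89 to 10.1), and no reversal is read from these values.

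A second strong peak lay within 0.0125 Mb of 2583 strong peaks (42.5%, 41.2 to 43.7). This share depends on the distance and the threshold: it was 26.2% at 5 kb, 67.1% at 50 kb and 22.1% with a score threshold of 2000. Among the other peaks, 8515 (27.8%, 27.3 to 28.3) had a strong peak that near, and among the next 6080 it was 2076 (34.1%, 33.0 to 35.4). The next peaks by score thus lay between the strong peaks and the others as a whole in each of these measures. The median gap from a strong peak to the nearest other strong peak was 18.3 kb (17.3 to 19.8). For the same number of peaks next by score, the gap to the nearest of their own kind was 33.9 kb (32.1 to 35.9), and 30.5% (29.3 to 31.7) had one within 0.0125 Mb. The strong peaks were thus packed more closely than an equally large set of peaks just below the threshold. Near neighbours of the same kind each count the other. The intervals for strong peaks near strong peaks, and for gaps and shares within a kind, are therefore too narrow even as counting error.

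Linking strong peaks with gaps of up to 0.0125 Mb gave 328 clusters of 3 or more, with 1199 strong peaks (19.7%). Another 1384 stood in pairs, and 3497 (57.5%) were linked to no other strong peak. Among the next 6080 peaks the same linking gave 171 clusters with 553 peaks (9.10%). Clusters of 5 or more numbered 48 for strong peaks and 4 for that set. The count of clustered strong peaks depends on both settings: it was 452 with links of 5 kb and 1906 with links of 25 kb, and 3942 and 107 with score thresholds of 500 and 2000. Clusters were 3.42 to 67.7 kb long, with a median of 16.3 kb. Clustered strong peaks had a median score of 1661.29, pairs 1590.13 and unlinked ones 1487.83. The shared score of 3100 was held by 10.0%, 7.88% and 5.86% of them. Both measures come from the score that chose the members, so they are a description only. In the same order the median widths were 1339, 1273.5 and 1214 bp, and links are measured between edges.

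The most strong peaks in a cluster were 9, reached by 3 clusters. The first, chr15:82225180-82290468, covered 65.3 kb and also held 3 weaker peaks. Its strong peaks scored 1083.41 to 3100, and 3 of them had the shared score, at chr15:82252705-82254591, chr15:82279931-82281975 and chr15:82285325-82290468. The last of these was 5144 bp wide, the widest of the 9. The second cluster, chr18:85023981-85091715, covered 67.7 kb, with 10 weaker peaks between strong ones of 1141.95 to 3228.29. It includes chr18:85074600-85076357, one of the 10 peaks named above. The third, chr5:66434801-66490187, covered 55.4 kb with 6 weaker peaks. It had the highest median score of the 3 (2804.82, against 1355.9 and 2032.64), yet none of its peaks reached 3100, its top being 2978.89. Peaks, strong and weak together, covered 31.6%, 33.3% and 36.5% of these 3 stretches. In the third, chr5:66469609-66471549 and chr5:66471557-66474187 are listed as separate strong peaks 7 bp apart. Cluster sizes count intervals as listed, and whether close ones are separate binding sites was not tested.

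Peaks were more often strong in peak-rich stretches of the autosomes. Of 2411 windows of 1 Mb, 1428 (59.2%) held a strong peak. The share of peaks that were strong rose with the number of peaks in the window. It was 7.21% (5.96 to 8.64) in windows of 1 to 5 peaks, 13.3% (12.02 to 14.7) at 6 to 10, 17.1% (16.3 to 17.9) at 21 to 30, and 20.1% (19.3 to 20.96) at 41 or more. The window with the most strong peaks was on chromosome 15, from 82057377 to 83057376, with 25 among 61 peaks. It contains the first of the 3 clusters. It is named after its values were seen. When the span of each autosome was cut into 5 equal parts, the part with the lowest coordinates had the lowest strong share (15.3%, 14.4 to 16.3), while the other 4 had 17.1% to 17.5%.

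**Figure D4:**
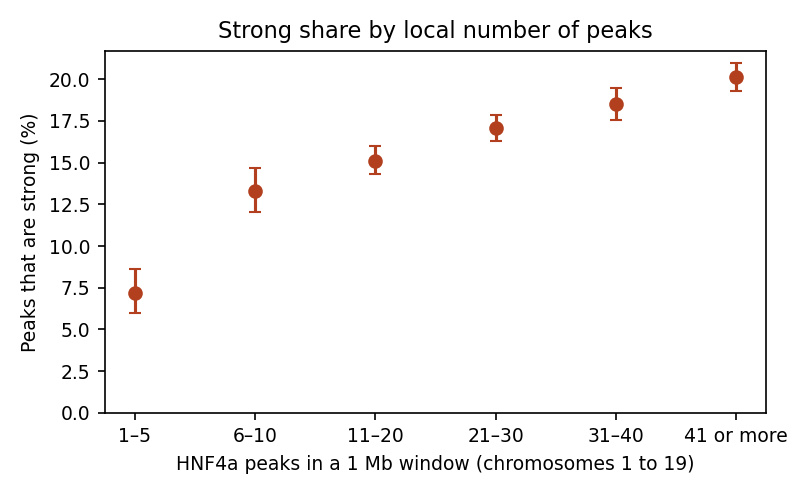
Percent of peaks that are strong (vertical axis) in 1 Mb windows of chromosomes 1 to 19, grouped by the number of HNF4a peaks they hold (horizontal axis), with exact 95% binomial intervals. The share rises from 7.21% in windows of 1 to 5 peaks to 20.1% in those of 41 or more.

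Across autosomes the strong share was nearly even. It ran from 15.7% on chromosome 2 (387 of 2463 peaks, 14.3 to 17.2) to 18.6% on chromosome 15 (291 of 1562, 16.7 to 20.7). All 19 intervals held the autosomal value of 17.0% (6040 of 35524, 16.6 to 17.4). Density varied far more, from 1.97 strong peaks per Mb of span on chromosome 12 to 4.40 on chromosome 19, where the span runs from the first to the last peak. The density of all peaks varied alongside, from 11.9 per Mb on chromosome 1 to 24.3 on chromosome 19. The Spearman correlation of both densities was 0.96 over the 19 autosomes, and that of peak density with the strong share 0.05. The autosomes thus differed in how many peaks they held per Mb, and much less in what part of those peaks was strong.

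Chromosome X stood apart. Of its 1178 peaks, 39 were strong (3.31%, 2.36 to 4.50), 5.14 times less than the autosomal share, and the interval lay below those of all 19 autosomes. It had 0.239 strong peaks per Mb, where the autosomal median was 2.51, and 7.22 peaks of any score per Mb, where that median was 14.6. The whole score distribution was lower and not the top alone. The median score on X was 143.775, against 256.56 to 310.24 on the autosomes. Scores of 100 or more were held by 66.6% of X peaks (77.5% to 80.8% on autosomes), scores of 500 or more by 12.48% (31.9% to 36.7%), and scores of 2000 or more by 0.34% (4.02% to 5.95%). None of the 434 peaks at 3100 was on X. Its highest strong peaks were chrX:120761475-120766341 (4867 bp, score 3007.25), chrX:137586405-137587743 (1339 bp, 2779.54) and chrX:100927098-100928118 (1021 bp, 2264.71). Strong peaks of X had a median width of 1167 bp, just under the autosomal range, and its other peaks 735 bp. The median gap to the nearest peak was 1946 bp for strong and 2020 bp for other peaks of X, a smaller contrast than on any autosome that rests on 39 strong peaks. The share with a strong peak within 0.0125 Mb did not show this: it was 25.6% for strong and 6.497% for other peaks of X, against 36.1% to 49.5% and 23.9% to 35.7% on the autosomes. No cluster of 3 strong peaks lay on X. Linking its peaks of any score gave long runs with few or no strong peaks: chrX:121885704-121970123 with 32 peaks and a highest score of 1288.73, chrX:120504005-120593275 with 29 and 902.74, and chrX:122201309-122276860 with 28 and 464.44. Such runs are not given here for the autosomes, so they are not read as particular to X. The sex of the animals was not used here, and the part of X copy number in its scores was not tested.

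Chromosome Y had 53 peaks in a span of 2.44 Mb. Its single strong peak, chrY:1787731-1793944, was 6214 bp wide and scored 2108.84. The share, 1.89%, has an interval of 0.0478 to 10.1 and could not be told from that of X at this number of peaks.

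**Figure D5:**
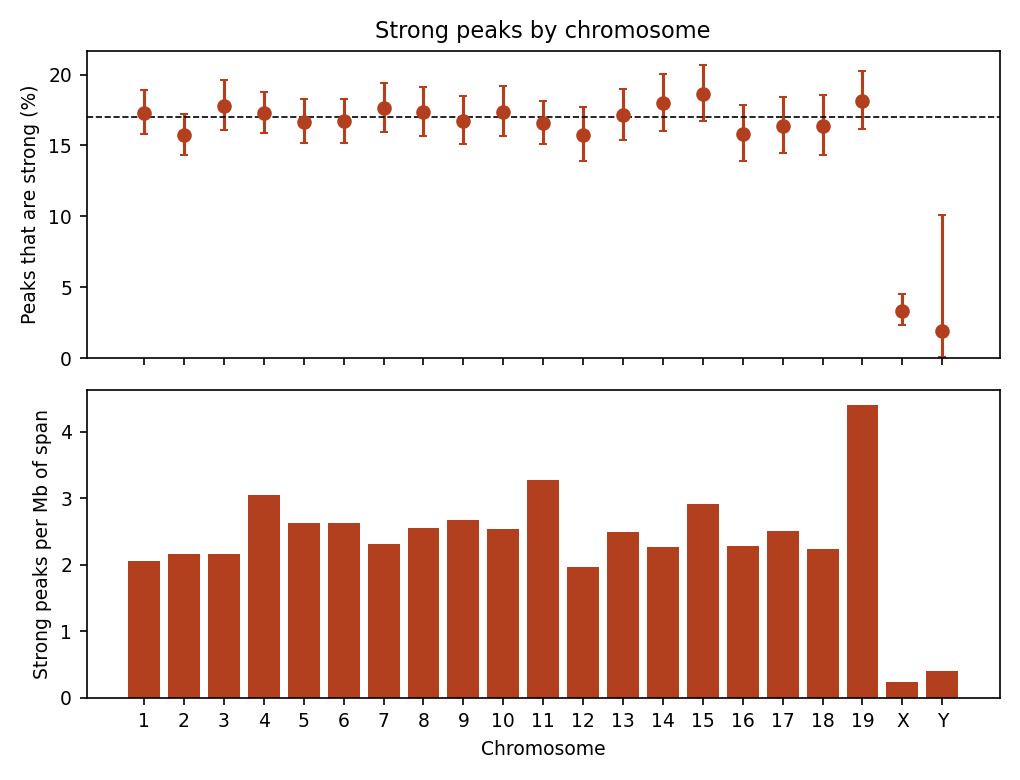
Upper panel, percent of each chromosome's HNF4a peaks that are strong, with exact 95% binomial intervals and the autosomal value of 17.0% as a dashed line. Lower panel, strong peaks per Mb between the first and last peak of each chromosome. The 19 autosomes lie between 15.7% and 18.6%, X at 3.31% and Y at 1.89%; chromosome 19 has the highest density, 4.40 per Mb.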

How the data were processed

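The control HNF4a peak list holds the position and 1 score of each peak as the authors deposited it; its scale and whether the 4 samples were pooled are not given in the sources used here. Per the submitters' processing notes, the ChIP samples involved Bowtie2 2.3.4.1, MACS2 2.1.1.20160309 and the build mm9, with no role given. The intervals do not overlap, and starts are printed counted from 1. Peaks with a score of 1000 or more were taken as strong. Gaps were measured between edges, and clusters link peaks with gaps of up to 0.0125 Mb and need 3 members. Shares have exact Clopper-Pearson 95% intervals and medians an order-statistic interval; both cover counting error only. The code (Python 3.11.15, pandas 2.3.3, SciPy 1.17.1) was checked on simulated peaks. Named peaks follow a rule: the 10 highest scores, and the 3 nearest either side of the threshold, widest, narrowest, most isolated and richest clusters. Members, lists and rules were chosen with earlier results of these data known. The widest interval of the list, the highest peaks of X and the Y peak were named after their values were seen. The long runs of peaks on X are likewise outside the rule for named peaks. The RNA tables were not used here.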

Additional observations from a re-analysis of the deposited data

How the results depend on the processing

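The direction of each contrast between strong and other peaks was the same in 3 of 3 alternatives for width, 5 of 5 for the gap, 6 of 6 for the share with a strong peak within 0.0125 Mb and 5 of 6 for the share of strong neighbours, counting alternatives run for both strong and other peaks that changed at least 1 of the values. The exception, added after seeing the data, was neighbours beyond 100 kb. There, 8.98% (7.18 to 11.05) were strong for strong peaks and 9.50% (8.89 to 10.1) for the others. No reversal is read from these values, and the cause was not tested. Values moved with the definitions. At thresholds of 500 and 2000 there were 12214 and 1764 strong peaks, with median widths of 1093 and 1573 bp (others 733 and 807 bp) and median gaps of 2312.5 and 1911 bp (others 4003 and 3387 bp). A strong peak lay within 0.0125 Mb of 55.6% and 22.1% of strong peaks (others 41.7% and 11.02%), strong neighbours made up 36.5% and 7.94% (others 31.6% and 4.64%), and clusters held 3942 and 107 strong peaks. The strong share became 12.48% and 0.34% on chromosome X, 32.5% and 4.02% on chromosome 2, and 34.9% and 5.95% on chromosome 15. With distances of 5, 25 and 50 kb, 26.2%, 55.2% and 67.1% of strong peaks and 16.8%, 38.9% and 51.7% of the others had a strong peak that near; clusters held 452 strong peaks at 5 kb and 1906 at 25 kb. Between midpoints the gaps were 3300.25 and 4678 bp. Neighbours within 100 kb were strong in 21.1% (others 16.9%) and those beyond 0.0125 Mb in 14.2% (others 12.4%). On chromosomes 1 to 19, 17.0% of peaks were strong, 28.6% of the others had a strong peak within 0.0125 Mb and 16.3% of their neighbours were strong. Without peaks at or above 3100, the strong width was 1207 bp and the gap 2118.5 bp. That choice was made after seeing the data. So was limiting widths, gaps, neighbours, clusters and the share with a strong peak within 0.0125 Mb to chromosomes 1 to 19. The other 21 of 68 values stayed within their interval, or within 1.5 times for counts; 11 of them were identical to the reported value. The planned gene-start and motif comparisons were not run, since no annotation or genome of the build was at hand. No paired analysis was possible because the list has no value per sample.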
